A study of Oryza sativa with 6 samples.

Results

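The sucrose synthase family of rice (Oryza sativa) was followed in RNA-seq libraries of developing seeds labelled 15 DAF, at the filling stage. The family was taken as the rows at 7 loci, SUS1 to SUS7, of 91080 features in all. The seeds came from a pair of near-isogenic lines, which are alike in most of their genome apart from a chosen region, and both grew in a paddy field. NIL-gaf1 carries the genotype labelled mutant and NIL-GAF1 the genotype labelled wild type, with 3 libraries each. The sample titles carry the line codes F1287gif2 for the mutant and F1288GIF2 for wild type. The labels name neither the region that differs nor the plants behind each library, so the spread behind each p-value is that between these samples and may be technical. The comparison, mutant against wild type, addressed which sucrose synthase dominates in each line and whether the level of the whole family was kept.

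Sucrose reaches the filling grain from the leaves and has to be cleaved before its carbon can enter starch, cell walls or respiration. Sucrose synthase does this reversibly, using UDP to give UDP-glucose and fructose, while invertase hydrolyses sucrose irreversibly to glucose and fructose. In rice, SUS3 and SUS4 are known mainly from the developing seed, SUS2 from most tissues, and SUS1 from elongating vegetative tissue. UDP-glucose feeds cellulose synthesis directly, and it feeds ADP-glucose and starch after conversion to glucose 1-phosphate.

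Total counts were 17236796 to 25402680 per library. Transcripts of storage proteins took more of the wild-type than of the mutant libraries, and results depended on how libraries were scaled. The summed share of 10 starchy endosperm markers was 0.406%, 5.92% and 16.9% of counts in the mutant libraries, against 30.0%, 33.0% and 31.5% in the wild-type libraries. None of the 10 markers, 9 embryo and aleurone markers and 4 green pericarp markers was at 0 in all libraries of a line. Values per library are given below in the order of libraries 1, 2 and 3 of a line. Levels were scaled by TMM, which sets libraries to a common level over most features. They are given as TMM-scaled FPKM, which are per length and so allow genes to be compared, or as normalized CPM, which are not. On this scale the median log2 fold change of the 22937 tested features, mutant over wild type, was 0.06, against 1.27 when libraries were scaled by their total count. Directions are therefore relative to the typical gene, and for the members and the named genes of the lists the total-count value is given where it changes a direction or a call.

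A different sucrose synthase led in each line: SUS3 in the mutant and SUS4 in wild type. SUS3 stood at 650, 609 and 599 TMM-scaled FPKM in the mutant libraries, against 28.6, 55.9 and 29.8 in the wild-type libraries. SUS4 stood at 90.4, 174 and 251 TMM-scaled FPKM in the mutant libraries, against 687, 575 and 710 in the wild-type libraries. Neither gene had a mutant library within the wild-type range. The mutant libraries lay close together for SUS3 and apart for SUS4, where library 3 was the highest and library 1 the lowest.

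**Figure D1:**
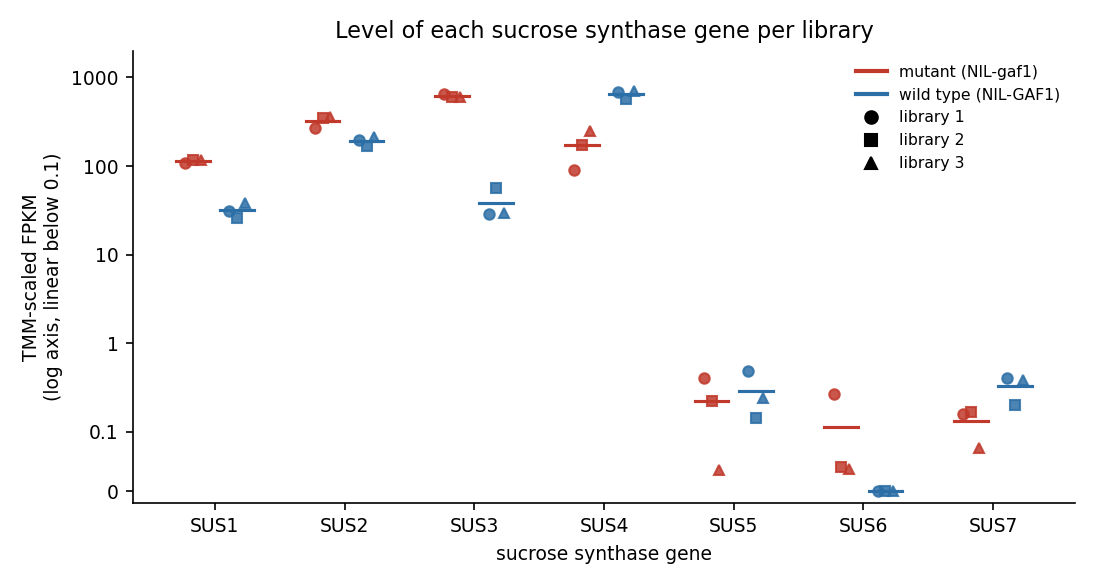
Level of each sucrose synthase gene in TMM-scaled FPKM (vertical log axis, linear below 0.1), with 3 mutant libraries (red, left) and 3 wild-type libraries (blue, right) per gene. Marker shapes give the library number and horizontal lines the means. SUS3 and SUS4 exchange places between the lines, SUS2 lies higher in every mutant library than in any wild-type library, and SUS5 to SUS7 stay below 0.5 in every library.

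SUS3 (OS07G0616800, locus LOC_Os07g42490, chromosome 7, 25429639 to 25435132 in the coordinates of the deposited table, whose build is not given in the sources used here) averaged 620 ± 27.2 TMM-scaled FPKM in the mutant and 38.1 ± 15.5 in wild type (SD, n = 3 each). It rose 16.3-fold in the mutant (log2 fold change 4.02, SE 0.38, edgeR adjusted p = 4.2e-04). Per length it ranked 63 of 22937 tested features in the mutant and 2030 in wild type, and by log2 fold change it ranked 124. The rise was called under all 15 alternatives, with log2 fold changes of 3.85 to 5.26. How even the mutant libraries were depended on the scaling. The highest was 1.09 times the lowest with TMM and 1.77 times with the deposited FPKM, which are scaled by total count and were 1222, 955 and 692 in the mutant libraries.

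SUS4 (OS03G0340500, LOC_Os03g22120, chromosome 3, 12674467 to 12680655) averaged 172 ± 80.4 TMM-scaled FPKM in the mutant and 657 ± 72.4 in wild type (SD, n = 3 each). It fell 3.83-fold in the mutant (log2 fold change -1.94, SE 0.42, edgeR adjusted p = 0.011). The fall was also called with total-count scaling, where the median feature shifts upward (log2 fold change -0.84, edgeR adjusted p = 0.033). Without mutant library 2 it was not called (log2 fold change -1.94, edgeR adjusted p = 0.0561). Over all 15 alternatives the log2 fold change ran between -2.34 and -0.84 and the adjusted p between 5.7e-07 and 0.0561. By rank per length SUS4 was feature 272 in the mutant and 105 in wild type.

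The spread of SUS4 among the mutant libraries ran in the same order as that of seed tissue markers. SUS4 was lowest in mutant library 1 and highest in mutant library 3. SUS2 had the same order, at 271, 345 and 359 TMM-scaled FPKM in the mutant libraries, so with TMM the order was not particular to SUS4. In deposited FPKM, scaled by total count, SUS4 kept the order in the mutant libraries, at 170, 272 and 290. SUS2 did not keep it there, at 509, 540 and 415. The summed starchy endosperm markers were at 2162, 37786 and 145905 normalized CPM in the mutant libraries, against 419393, 527299 and 483809 in the wild-type libraries. The 9 embryo and aleurone markers summed to 300.1, 738 and 1529 normalized CPM in the mutant libraries, against 4213, 3641 and 4812 in the wild-type libraries. Of the tested markers, 2 of 10 starchy endosperm and 7 of 9 embryo and aleurone genes were called lower and none higher, and with total counts these were 3 and 6 lower, and none and 1 higher. Without mutant library 2 they were 0 of 10 and 4 of 9 lower, and without mutant library 1 they were 7 and 8. The green pericarp markers did not follow this order, at 1020, 563 and 546 normalized CPM in the mutant libraries, against 857, 639 and 651 in the wild-type libraries, and none of the 4 was called, while with total counts 3 were called higher and none lower. Over all tested features 15.4% were called lower and 15.8% higher, and with total counts 3.77% and 71.8%. The part of these tissues in the sucrose synthase values was not tested. In RNA of whole seeds, fewer cells of a type and less RNA per cell cannot be told apart.

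Of single markers, the log2 fold change was -5.34 for RAG2, a seed allergen, -2.58 for WAXY, the granule-bound starch synthase, and -4.21 for GluC, a glutelin that did not pass (edgeR adjusted p = 0.0538) but did with total counts (-3.29, edgeR adjusted p = 0.012). RAG2 and WAXY were not called without mutant library 2 (edgeR adjusted p = 0.0761 and 0.0629). For the embryo and aleurone it was -3.33 for RAB16C and -3.89 for RAB16D, both dehydrins, and -2.32 for OLE16, an oil-body oleosin, all called with any 1 library left out. Without mutant library 3 the values were -7.05 for RAG2, -3.21 for WAXY, -5.77 for GluC, -4.29 for RAB16C, -4.57 for RAB16D and -2.95 for OLE16. Of the green pericarp, RBCS had a log2 fold change of -0.84 and CAB2R one of -0.20, against 0.40 and 1.07 with total counts, where CAB2R was called, and RCABP89 had 0.20 and was called with total counts (1.46).

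SUS1 (OS03G0401300, LOC_Os03g28330, chromosome 3, 16301279 to 16306089) was also higher in the mutant, though far below SUS3. It stood at 108, 117 and 116 TMM-scaled FPKM in the mutant libraries, against 30.8, 26.2 and 38.5 in the wild-type libraries. The mean of 114 ± 5.20 in the mutant was 3.57-fold that of 31.8 ± 6.23 in wild type (SD, n = 3 each; log2 fold change 1.84, SE 0.22, edgeR adjusted p = 0.001). This rise, too, was called under all 15 alternatives, with log2 fold changes of 1.71 to 3.03.

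SUS2 (OS06G0194900, LOC_Os06g09450, chromosome 6, 4796628 to 4802509) was second in level per length in both lines. It stood at 271, 345 and 359 TMM-scaled FPKM in the mutant libraries, against 195, 167 and 211 in the wild-type libraries. The lines did not overlap, but the difference did not pass the test (325 ± 47.1 in the mutant and 191 ± 22.2 in wild type, SD, n = 3 each; log2 fold change 0.76, SE 0.28, edgeR adjusted p = 0.0746). Among 6 alternatives that called it higher were total-count scaling (1.94, edgeR adjusted p = 5.8e-04) and the fit without mutant library 1 (0.88, edgeR adjusted p = 0.0221). The sign was positive under all 15 alternatives, with adjusted p between 1.5e-04 and 0.213.

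The remaining members were barely transcribed. SUS5 (OS04G0309600, LOC_Os04g24430, chromosome 4, 14008245 to 14013443) had 46, 24 and 3 counts in the mutant libraries, and 17, 5 and 10 counts in the wild-type libraries. SUS7 (OS04G0249500, LOC_Os04g17650, chromosome 4, 9661934 to 9667132) had 18, 18 and 6 counts in the mutant libraries, and 14, 7 and 16 counts in the wild-type libraries. Neither passed the test: the log2 fold change was -0.35 (SE 0.78, edgeR adjusted p = 0.765) for SUS5 and -1.28 (SE 0.50, edgeR adjusted p = 0.0841) for SUS7. For SUS5 the sign turned with total-count scaling, to 0.96. In the deposited table SUS5 and SUS7 have the same span, 5199 bases, and the same implied transcript length, 2814 bases, at separate places on chromosome 4, so counts of either are uncertain if reads were split between like copies.

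SUS6 (OS02G0831500, LOC_Os02g58480, chromosome 2, 35754946 to 35761216) had 48, 7 and 5 counts in the mutant libraries, and 0 counts in every wild-type library. A count of 0 allows up to 0.244, 0.243 and 0.205 normalized CPM in the wild-type libraries, taken as 3 counts per library and covering counting error only. Against that limit the mutant mean of 0.520 normalized CPM was at least 2.26-fold higher. The bound rests on mutant library 1: without it the mutant mean of 0.178 lay below the mean wild-type limit of 0.231. SUS6 was removed by the low-count filter and has no main test.

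In all, 3 of the 6 tested members were called, 2 higher (SUS1 and SUS3) and 1 lower (SUS4), where 31.2% of all tested features were called, 15.8% higher and 15.4% lower. The lines did not overlap in normalized CPM for 5 of the 6 tested members, all but SUS5, against 49.0% of all tested features. With total-count scaling 4 members were called, 3 higher and 1 lower, where 75.6% of all features were called, 71.8% higher and 3.77% lower. With backgrounds this high, the counts of members do not set the family apart. SUS1, SUS3 and SUS4 were each called and at least 2-fold apart, which held for 18.8% of tested features.

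**Figure D2:**
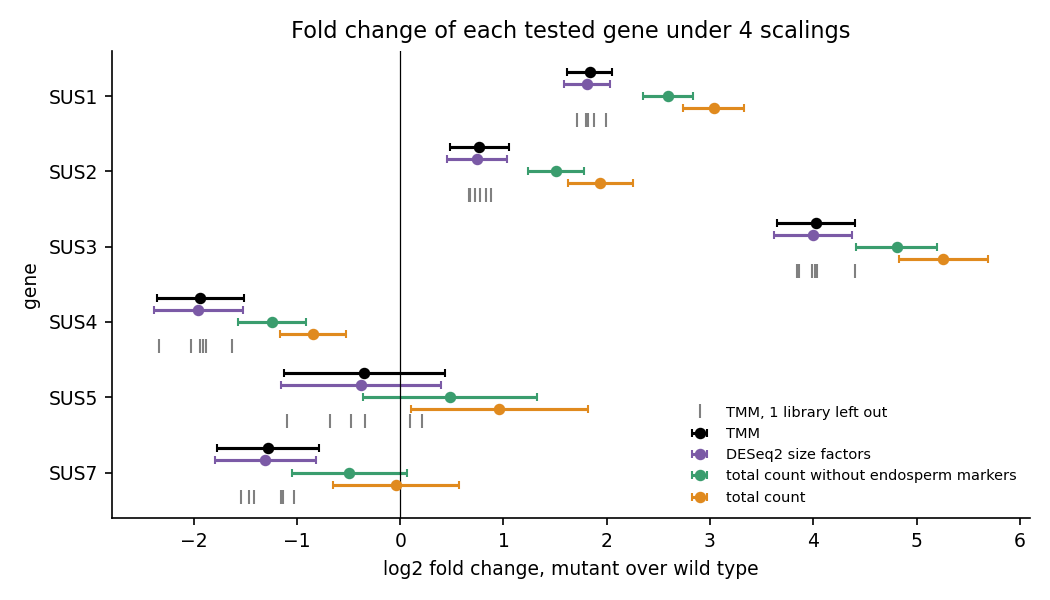
Log2 fold change, mutant over wild type, of the 6 tested members (horizontal axis) under 4 library scalings, with bars giving 1 standard error, and grey ticks for the TMM fit with 1 library left out. SUS1, SUS2 and SUS3 lie right of 0 and SUS4 left of 0 under each scaling, while SUS5 crosses 0.

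Shares within the family do not depend on how libraries are scaled, since every member of a library is divided by the same total. SUS3 made up 58.1%, 48.9% and 45.2% of the family's transcripts per length in the mutant libraries, against 3.03%, 6.78% and 3.01% in the wild-type libraries. SUS4 made up 8.07%, 13.9% and 19.0% in the mutant libraries, against 72.9%, 69.7% and 71.7% in the wild-type libraries. Every mutant library thus carried SUS3 as its main form and every wild-type library SUS4. The mean share of SUS3 was 50.7% ± 6.61 in the mutant and 4.27% ± 2.17 in wild type, and that of SUS4 was 13.7% ± 5.45 in the mutant and 71.4% ± 1.63 in wild type (SD, n = 3 each). For both shares p was 0.1 in a two-sided exact permutation test, which can go no lower with 3 libraries a line. Both genes were picked for leading a line in these same libraries, so p gives no independent support for the difference.

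The other forms differed less in share. SUS2 held 24.2%, 27.7% and 27.1% in the mutant libraries, against 20.7%, 20.3% and 21.4% in the wild-type libraries, so it kept between 20.3% and 27.7% of the family in all 6. SUS1 held 9.60%, 9.42% and 8.73% in the mutant libraries, against 3.26%, 3.17% and 3.89% in the wild-type libraries. SUS5, SUS6 and SUS7 together never exceeded 0.0949% of a library's family total.

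**Figure D3:**
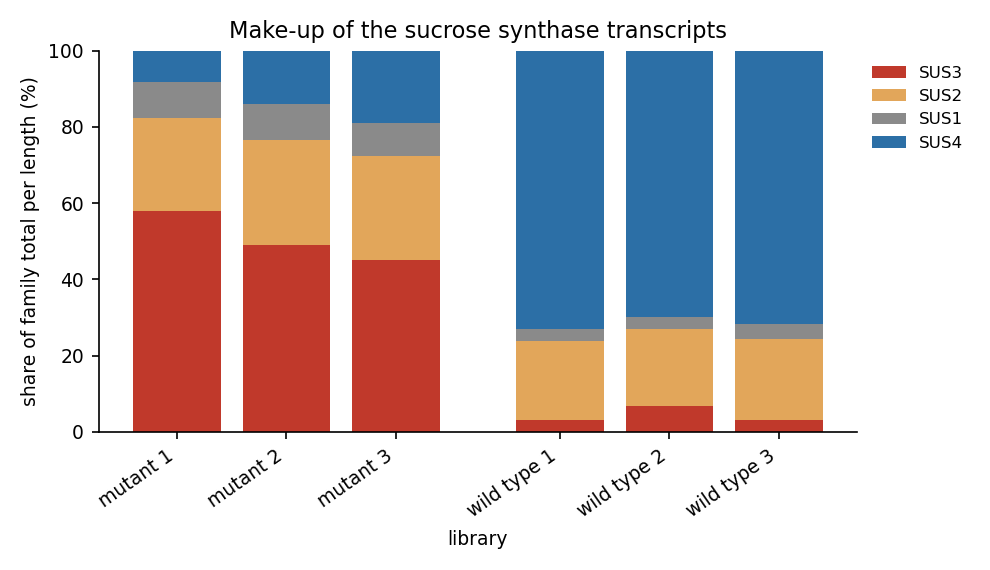
Share of the sucrose synthase total per length (vertical axis, %) held by SUS3, SUS2, SUS1 and SUS4 in each library, mutant libraries on the left and wild-type libraries on the right. SUS3 is the largest block in the mutant (45.2% to 58.1%) and SUS4 in wild type (69.7% to 72.9%), while the SUS2 block differs little in height. SUS5 to SUS7, at most 0.0949% together, are not drawn.

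The ratio of SUS3 to SUS4 sums up the exchange. Per length it was 7.20, 3.51 and 2.39 in the mutant libraries, against 0.0416, 0.0974 and 0.0419 in the wild-type libraries. SUS4 accordingly exceeded SUS3 by 24.0, 10.3 and 23.8 times in the wild-type libraries. The mean log2 ratio of SUS3 over SUS4 was 1.97 ± 0.81 in the mutant and -4.17 ± 0.71 in wild type (SD, n = 3 each; two-sided exact permutation p = 0.1). This and the tests of the SUS3 and SUS4 shares were the 3 tests of this kind. All used SUS3 and SUS4, which were picked from these same values. Within the mutant the ratio was highest in library 1, where the starchy endosperm markers were lowest, and lowest in library 3, where they were highest, and it stayed above 2 in each.

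In the mutant the order per length was SUS3, SUS2, SUS4, SUS1 and then the minor forms. SUS3 exceeded SUS2 in all 3 mutant libraries, by 2.40, 1.77 and 1.67 times in libraries 1, 2 and 3, and SUS2 exceeded SUS4 in all 3. SUS4 and SUS1 could not be ordered beyond their spread: SUS4 was above SUS1 in libraries 2 and 3 of the mutant and below it in library 1. In wild type the order was SUS4, SUS2, SUS3, SUS1. SUS4 exceeded SUS2 by 3.52, 3.43 and 3.36 times in the wild-type libraries, a ratio that varied little. SUS3 and SUS1 overlapped in wild type, with SUS3 the higher in 1 of 3 libraries. SUS5, SUS6 and SUS7 overlapped in the mutant, and SUS5 and SUS7 overlapped in wild type. On plain counts, where longer transcripts weigh more, SUS3 was still ahead of SUS2 in every mutant library, by 1.51, 1.11 and 1.05 times in libraries 1, 2 and 3.

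Summed per length, the family was kept and somewhat higher in the mutant. The total of the 7 genes was 1120, 1245 and 1325 TMM-scaled FPKM in the mutant libraries, against 942, 824 and 990 in the wild-type libraries. The lines did not overlap, with 1230 ± 103 in the mutant and 919 ± 85.2 in wild type (SD, n = 3 each), a ratio of 1.34. By mean, SUS3 differed by 581 TMM-scaled FPKM between mutant and wild type and SUS4 by -485, while SUS2 differed by 134 and SUS1 by 81.7, for a net difference of 311. No p is given for the total, since it is a sum over genes chosen with results of these data known.

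How much higher the total lay depended on the scaling, although it was higher in the mutant under each of 4. The ratio was 1.32 with DESeq2 size factors, 2.26 with total counts after removal of the starchy endosperm markers, and 3.05 with total counts. On that last scale the deposited FPKM of the family summed to 2105, 1952 and 1531 in the mutant libraries, against 674, 516 and 644 in the wild-type libraries. As a share of all counts the family took 0.632% ± 0.0957 in the mutant and 0.209% ± 0.0294 in wild type (SD, n = 3 each). For comparison, the typical tested feature moved by a log2 fold change of 1.27 on the total-count scale, and the family total by 1.61.

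The sum of the other 6 genes without SUS3, a sum chosen after the values were seen, had no fixed direction. It was 470, 636 and 726 TMM-scaled FPKM in the mutant libraries, against 914, 769 and 960 in the wild-type libraries, a ratio of 0.693. With total counts the same sum was 1.55-fold higher in the mutant, at 883, 997 and 839 FPKM in the mutant libraries, against 653, 481 and 625 in the wild-type libraries. With starchy endosperm markers removed from the totals the lines overlapped.

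**Figure D4:**
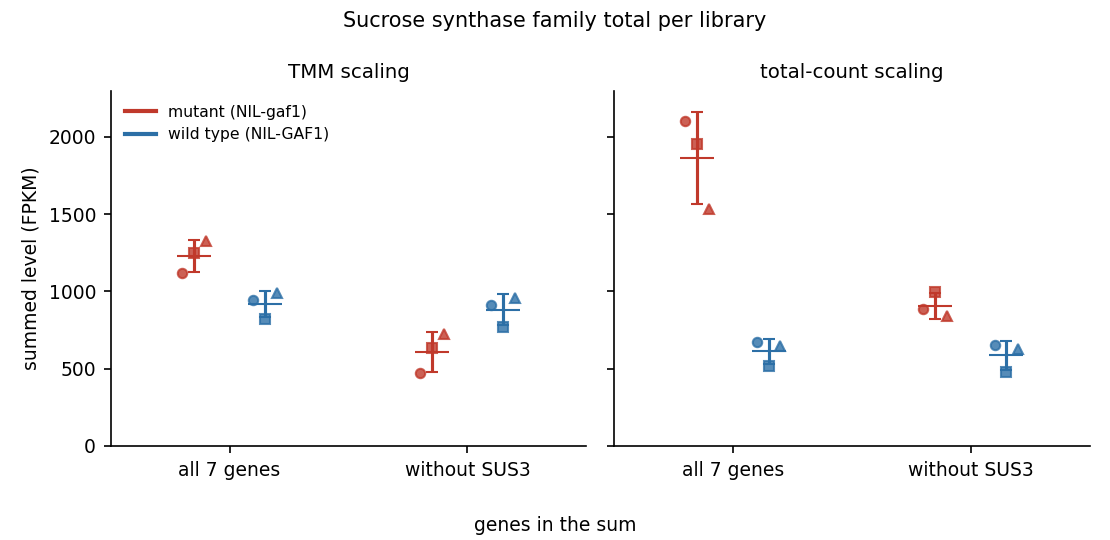
Summed level of the sucrose synthase genes (vertical axis, FPKM), for all 7 genes and without SUS3, with TMM scaling on the left and total-count scaling on the right. Points are libraries (mutant red, wild type blue), and dashes with bars are the mean and SD of 3. All 7 genes together lie higher in the mutant under both scalings, whereas the sum without SUS3 lies lower in the mutant with TMM (470 to 726 against 769 to 960) and higher with total counts.

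Genes that act on the products of sucrose cleavage were mostly higher in the mutant or not called. The list held 16 fructokinases, hexokinases, UDP-glucose pyrophosphorylases and phosphoglucomutases, of which 15 were tested, 9 rose, none fell and 6 did not pass. Over all tested features 15.8% were called higher and 15.4% lower. The list's median log2 fold change was 0.84, against 0.06 for all tested features. On the total-count scale all 15 were called higher, as 71.8% of all features were, with a median of 2.06 against 1.27. FRK2, a fructokinase that phosphorylates the fructose released by sucrose synthase, stood at 276, 194 and 182 normalized CPM in the mutant libraries, against 22.8, 28.0 and 29.7 in the wild-type libraries. It rose 8.08-fold (log2 fold change 3.01, SE 0.23, edgeR adjusted p = 2.2e-04).

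UGP2, a UDP-glucose pyrophosphorylase, which interconverts UDP-glucose and glucose 1-phosphate, rose 12.6-fold, at 6.23 ± 1.40 normalized CPM in the mutant, against 0.497 ± 0.280 in wild type (SD, n = 3 each; edgeR adjusted p = 7.2e-04). UGP1 lay far higher, at 920 ± 45.5 normalized CPM in the mutant against 560 ± 43.7 in wild type (SD, n = 3 each). It rose 1.64-fold (edgeR adjusted p = 0.0497). PGMc, a phosphoglucomutase, was at 595 ± 71.1 normalized CPM in the mutant, against 205 ± 18.3 in wild type (SD, n = 3 each), a rise of 2.90-fold (log2 fold change 1.54, SE 0.21, edgeR adjusted p = 0.0019). FRK2, UGP2 and PGMc were called with any 1 library left out. The other 6 that rose, named after their values were seen, were UGP1 and the hexokinases HXK2, HXK3, HXK4, HXK6 and HXK7. Of these, UGP1 and HXK3 lost the call with most libraries left out in turn, and the whole list then had 7 to 9 called. The rows for HXK2 and HXK4 are short, with implied lengths of 644 and 984 bases.

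**Figure D5:**
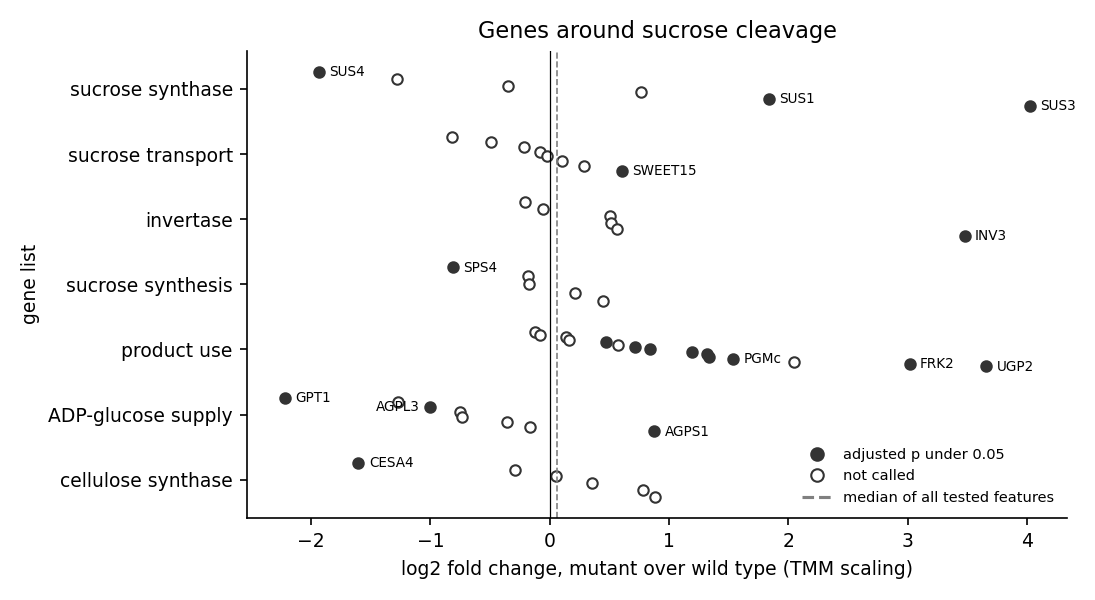
Log2 fold change, mutant over wild type with TMM scaling (horizontal axis), of the tested genes in 7 lists around sucrose cleavage, filled where the edgeR adjusted p is under 0.05. The dashed line is the median of all tested features, 0.06. The product use list lies mostly right of the line, the ADP-glucose supply list mostly left, and the sucrose synthases span the widest range.

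Invertase is the other route of sucrose cleavage. The 10 invertases listed, cell wall and vacuolar forms, were far lower in transcript level than sucrose synthase in both lines. Other invertases were not looked up, so the sum is not that of all invertases. The 10 invertases summed to 42.0, 27.0 and 16.9 TMM-scaled FPKM in the mutant libraries, against 24.9, 19.3 and 21.8 in the wild-type libraries. The sucrose synthase total exceeded it by 26.7, 46.0 and 78.3 times in the mutant libraries, against 37.9, 42.7 and 45.3 times in the wild-type libraries, so the lines overlapped in this ratio. Of 6 tested invertases 1 rose and none fell (median log2 fold change 0.51), while with total counts 5 were called higher and none lower (median 1.77). Over all tested features 15.8% were called higher and 15.4% lower, and with total counts 71.8% and 3.77%. With TMM the gene that rose was the vacuolar invertase INV3 (log2 fold change 3.48, SE 0.89, edgeR adjusted p = 0.0205). It stood at 15.5, 5.99 and 1.70 normalized CPM in the mutant libraries, against 1.38, 0.243 and 0.479 in the wild-type libraries.

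The rise of INV3 was 11.1-fold with all libraries, 5.56-fold without mutant library 1 and 20.6-fold without wild-type library 1. Without wild-type library 2 or 3 it did not pass (edgeR adjusted p = 0.0753 and 0.0792), and with any 1 library left out the adjusted p ran between 0.002 and 0.0792. The cell wall invertase CIN1 had a log2 fold change of 0.51 (edgeR adjusted p = 0.235) and CIN7 one of 0.52 (edgeR adjusted p = 0.0517). Both were called higher with total counts, at 1.80 for CIN1 (edgeR adjusted p = 0.004) and 1.74 for CIN7 (edgeR adjusted p = 9.4e-04).

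Of 8 tested sucrose transport genes 1 rose, none fell and 7 did not pass (median -0.05), while with total counts 5 were called higher and none lower (median 1.21). Over all tested features 15.8% were called higher and 15.4% lower, and with total counts 71.8% and 3.77%. SWEET15, a sugar exporter, was at 117 ± 4.63 normalized CPM in the mutant, against 76.9 ± 10.4 in wild type (SD, n = 3 each; log2 fold change 0.60, SE 0.16, edgeR adjusted p = 0.0211). The call was lost without mutant library 2 and without wild-type library 1 or 3. SWEET11, a sucrose exporter that acts with SWEET15 in the rice seed, averaged 977 ± 123 normalized CPM in the mutant, against 1718 ± 283 in wild type (SD, n = 3 each) and did not pass (log2 fold change -0.81, edgeR adjusted p = 0.0755, 0.36 with total counts). The sucrose importer SUT1 had a log2 fold change of -0.49 (edgeR adjusted p = 0.114), and 0.76 with total counts.

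Sucrose phosphate synthases, which make sucrose, numbered 5 tested genes with none higher and 1 lower (median -0.18), while with total counts 4 were called higher and none lower (median 1.03). The shares over all tested features were 15.8% higher and 15.4% lower, and with total counts 71.8% and 3.77%. SPS4 was at 74.7 ± 11.6 normalized CPM in the mutant, against 131 ± 11.2 in wild type (SD, n = 3 each; log2 fold change -0.81, SE 0.17, edgeR adjusted p = 0.0098), and 0.42 with total-count scaling, which was not called. SPS1 and SPS2 did not pass, with log2 fold changes of 0.45 (edgeR adjusted p = 0.308) and -0.18 (edgeR adjusted p = 0.304). With total counts both were called higher, at 1.67 for SPS1 (edgeR adjusted p = 0.0075) and 1.03 for SPS2 (edgeR adjusted p = 0.0026). The row for SPS1 has an implied length of only 294 bases, against 6563 for SPS2, so it may hold part of the gene.

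Downstream, 8 genes of ADP-glucose supply, the step before starch, gave 1 higher, 2 lower and 5 not called, with a median of -0.74. With total counts 3 were called higher and 1 lower, with a median of 0.39. Among all tested features, 15.8% passed as higher and 15.4% as lower with TMM, and 71.8% and 3.77% with total counts. Their median log2 fold change was 0.06 with TMM and 1.27 with total counts. With so few genes, the numbers called with TMM do not set this list apart. GPT1, which carries glucose 6-phosphate into plastids, fell 4.66-fold, at 220 ± 74.0 normalized CPM in the mutant, against 1024 ± 140 in wild type (SD, n = 3 each; log2 fold change -2.22, SE 0.32, edgeR adjusted p = 0.0021, and -1.09 with total counts). AGPS1, which codes for a small subunit of the enzyme that makes ADP-glucose, rose to 380 ± 36.9 normalized CPM in the mutant, against 207 ± 52.9 in wild type (SD, n = 3 each; log2 fold change 0.88, SE 0.24, edgeR adjusted p = 0.0249). AGPL3, a large subunit, was at 51.4 ± 24.4 normalized CPM in the mutant, against 103 ± 12.6 in wild type (SD, n = 3 each; edgeR adjusted p = 0.0472), while total counts gave a log2 fold change of 0.10, not called.

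AGPL2, the large subunit for which the symbol gif2 in the titles is also in use, had a log2 fold change of -0.74 (SE 0.41, edgeR adjusted p = 0.207) and 0.38 with total counts. The calls of AGPS1 and AGPL3 were lost without mutant library 2, without wild-type library 1 and without wild-type library 3, and AGPL3 also without wild-type library 2. The number called lower in this list was 1 without mutant library 2 or any 1 wild-type library, and 4 without mutant library 3. Summed over the list, normalized CPM were 3433, 5137 and 7142 in the mutant libraries, against 10380, 9948 and 10463 in the wild-type libraries. With TMM, SUS4 and SUS2 also ran in this order within the mutant. The list was not summed with total counts, where its median log2 fold change was 0.39, against -0.74 with TMM.

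The 6 cellulose synthases, which draw on UDP-glucose for cell walls, gave none higher and 1 lower (median 0.20), while with total counts 5 were called higher and none lower (median 1.44). Over all tested features 15.8% were called higher and 15.4% lower, and with total counts 71.8% and 3.77%. CESA4, a secondary wall form, was at 32.4 ± 16.2 normalized CPM in the mutant, against 98.4 ± 33.9 in wild type (SD, n = 3 each; log2 fold change -1.60, SE 0.43, edgeR adjusted p = 0.0247, and -0.30 with total counts, not called). Its call was lost without mutant library 2 and without wild-type library 1 or 3. CESA7 and CESA9, which also act in secondary walls, did not pass, at 0.88 (edgeR adjusted p = 0.0964) and 0.78 (edgeR adjusted p = 0.153). With total counts both were called higher, at 2.18 for CESA7 (edgeR adjusted p = 0.0024) and 2.08 for CESA9 (edgeR adjusted p = 0.0036). Without mutant library 3, 2 cellulose synthases were called higher.

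Across the 6 libraries, the described features nearest to SUS3 in profile were Scarecrow-like protein 28 (OS06G0127800, a GRAS protein), RR33 (a response regulator) and ACO1 (which makes ethylene). Likeness was the Euclidean distance between centred log2 normalized CPM over the 6 libraries, 0.92, 0.96 and 1.08 for these 3, among 2445 candidates. Scarecrow-like protein 28 averaged 12.1 ± 1.73 normalized CPM in the mutant, against 0.850 ± 0.149 in wild type, and RR33 averaged 15.6 ± 3.86 in the mutant, against 1.08 ± 0.787 in wild type (SD, n = 3 each), and ACO1 had a log2 fold change of 3.40. Nearest to SUS4 were PXG, a peroxygenase (0.37), TOC75, the channel of protein import into plastids (0.40), and GLN1-3, a glutamine synthetase (0.43). PXG was at 68.8 ± 27.0 normalized CPM in the mutant, against 245 ± 51.4 in wild type, and TOC75 averaged 537 ± 299 in the mutant, against 1743 ± 271 in wild type (SD, n = 3 each). A profile over 6 libraries is largely the difference between the lines, and these values are a description.

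The features next to SUS3 and SUS4 on their chromosomes differed less between the lines with TMM scaling than those genes did. Of the 10 nearest tested features, 5 on each side, 2 were called higher and 1 lower around SUS3, with a median log2 fold change of 0.49. Around SUS4 none was higher and 4 were lower, with a median of -0.51. The features around SUS1, among them OS03G0401366 at the same locus, had none called (median 0.21). Those around SUS2 had 3 lower and none higher (median -0.31). Over all tested features 15.8% were called higher and 15.4% lower. The fold changes of SUS3 (4.02) and SUS4 (-1.94) lay outside the ranges of their neighbours, -0.56 to 2.16 for SUS3 and -1.52 to 0.79 for SUS4.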

How the data were processed

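The authors deposited 1 table of 91080 features with coordinates, read counts and FPKM values for 6 libraries. Per the file headers, the deposited counts are raw counts per feature, and the deposited FPKM are fragments relative to feature length and the total of the library. Dividing count by FPKM gives a length, and for the 18936 features with 10 or more counts throughout it varied by at most 0.0099% between libraries. Bowtie 0.12.2 is named per the submitters' processing notes. The sources used here name no counting tool, genome build, annotation or strand setting.

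Members were the rows at 7 loci, and at loci with several rows the row with the largest summed count was taken. The members and the 9 other gene lists were chosen with earlier results of these data known. All 84 listed loci matched a row. Named genes were all members, AGPL2, the 3 genes with the lowest adjusted p in each other list, and the 3 features with the profile nearest to the leading member of each line (mean of at least 5 normalized CPM). UGP1 and 5 hexokinases were named besides, after their values were seen.

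Counts of all features kept by filterByExpr were tested with edgeR 4.0.16 in R 4.3.3 (TMM, glmQLFit, glmQLFTest, with no term but the line) and called at a Benjamini-Hochberg adjusted p under 0.05. Standard errors were derived from the fold change and its F statistic. TMM-scaled FPKM are counts divided by this length in kilobases and by the TMM-scaled library size, on the usual FPKM scale. Values of single measures were compared by exact permutation over libraries (scipy 1.17.1). Alternatives were DESeq2 size factors, total-count scaling with and without starchy endosperm markers, no filter, the DESeq2 1.42.0 Wald test, limma 3.58.1 on log2(FPKM + 1) where the mean FPKM reached 1, the replicate number as a block, the sum of all rows at a locus, an adjusted p under 0.01, and each library left out in turn. The script for the fits was tested on simulated data. Tables and figures were made with pandas 2.3.3, numpy 2.4.6 and matplotlib 3.10.9 in Python 3.11.15.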

Additional observations from a re-analysis of the deposited data

How the results depend on the processing

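The log2 fold changes of SUS1 and SUS3 kept their direction and call under all 15 alternatives, and those of SUS2 and SUS4 kept their direction. SUS2 passed with total counts (1.94), with total counts without starchy endosperm markers (1.51), with no filter (0.91), with the DESeq2 Wald test (0.82) and with limma on FPKM (1.93), and with 1 library left out it ran between 0.66 and 0.88. SUS4 did not pass at an adjusted p under 0.01 (-1.94), which left 0 members called lower, and with 1 library left out it ran between -2.34 and -1.63, with 0 to 1 members called lower. The DESeq2 Wald test called 5 members, 4 higher, as it also called SUS2 and SUS6. The sign of SUS5, never called, turned with total counts (0.96) and with total counts without starchy endosperm markers (0.48), and ran between -1.09 and 0.21 with 1 library left out. On plain counts the share of SUS3 in the mutant was 41.5% and that of SUS4 in wild type 65.5%. The log2 ratio of the family total was 1.61 with total counts and 1.17 with total counts without starchy endosperm markers. The cause was not tested for these.

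Of all features, 7148 were called, against 17337 with total counts, 13597 with total counts without starchy endosperm markers, 15444 with limma on FPKM, 3364 at an adjusted p under 0.01, and 4012 to 8328 with 1 library left out, the lowest without mutant library 2 and 4557 without wild-type library 1. Calls were higher in the mutant for 50.6% with TMM, 48.6% with size factors, 61.5% with no filter, 94.4% with limma on FPKM, 90.3% and 95.0% with total counts without and with the markers. The replicate numbers did not pair libraries across lines (correlations of deviations 0.07, -0.04 and -0.03 for numbers 1, 2 and 3). With the replicate number as a block 6048 features were called, no member's call changed (SUS1 1.85, SUS2 0.76, SUS3 4.10, SUS4 -2.04), and 7 genes of the product use list were called higher. Depth limits SUS5, SUS6 and SUS7, which had at most 48 counts in a library.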

Other observations

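A second row lies at the SUS1, SUS2 and SUS6 loci and was left out of the main values of these members. At the SUS1 locus it is OS03G0401366 (chromosome 3, 16306856 to 16307624), just beyond the end of SUS1, with 11, 16 and 17 counts in the mutant libraries, and 3, 1 and 8 counts in the wild-type libraries. At the SUS2 locus it is OS06G0195150, with 2, 3 and 2 counts in the mutant libraries, and 3, 0 and 0 counts in the wild-type libraries. The second row at the SUS6 locus, OS02G0831650, had no counts in any library.

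Across the mutant libraries SUS4 shared an order with the seed tissue markers, as SUS2 also did with TMM. SUS4 also kept a narrow ratio to SUS2 in wild type but not in the mutant. SUS4 over SUS2 per length was 0.333, 0.504 and 0.700 in the mutant libraries, against 3.52, 3.43 and 3.36 in the wild-type libraries. SUS2 over SUS1 per length was 2.52, 2.94 and 3.10 in the mutant libraries, against 6.34, 6.40 and 5.49 in the wild-type libraries. These ratios do not depend on the scaling of libraries and were noticed in the data rather than tested.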
